A study of Mus musculus with 16 samples.

Results

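The proteasome subunit genes were the 49 genes, of 55359 in the deposited table, whose symbol is Psm, a letter from a to g and a number, with or without a further letter. They comprise 19 genes of the core particle (Psma and Psmb), 20 of the regulatory cap (Psmc and Psmd), 5 activators (Psme), 4 assembly chaperones (Psmg) and the inhibitor Psmf1. RNA was sequenced from C57BL/6JNarl mice in 4 groups of 4 libraries: non-stressed males, non-stressed females, chronic-stressed males and chronic-stressed females. The labels give the tissue as brain, and the series text narrows it to the hippocampus. They name no stress procedure, age, allele or agent. Pool sizes were 3 in every library of both non-stressed groups and of the chronic-stressed females, and 2, 2, 1 and 2 in the chronic-stressed males. Whether pools shared animals is not stated, so p-values measure the spread between these libraries.

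The proteasome is the main protease of the cytosol and nucleus for proteins tagged with ubiquitin. Its core particle is a barrel of alpha rings, which gate the entrance, around beta rings, which carry the proteolytic sites. The regulatory cap binds ubiquitin chains, removes them and unfolds the substrate with a ring of ATPases, while activators of the 11S and PA200 kinds can open the gate instead of the cap. Immune cells, and other cells exposed to interferon, exchange the catalytic beta subunits for the immunoproteasome set. In neurons, proteasomes take part in protein turnover at synapses.

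Sequencing depth was 15.2 to 32.5 M counts a library (M, 1e+06). All 8 forebrain neuron markers in the list used here were tested. Their summed level was 4637 to 5273 CPM (counts divided by the library total in M) in non-stressed and 5454 to 6004 CPM in chronic-stressed libraries, without overlap, and 4 were called higher and 1 lower in males and 5 higher in females. The 5 astrocyte markers summed to 2854 to 3600 CPM against 3791 to 4264 CPM, also without overlap, with 1 called higher and 1 lower in males and 2 higher in females. Of all tested genes, 18.5% were called higher and 21.2% lower in males, and 22.1% and 27.3% in females. Map2 made up much of the neuron shift in males, and Slc1a2 of the astrocyte shift. Map2 (16456 exonic bases) averaged 863 CPM in non-stressed and 1282 CPM in chronic-stressed males, and Slc1a2 (13133) 2055 and 2758 CPM. Snap25 (6791) averaged 1840 and 1847 CPM there, and Gfap (4218) went from 441 to 362 CPM. The part of these marker shifts in the proteasome values was not tested. Non-stressed female libraries 1 and 4 stood apart from the other non-stressed libraries in the proteasome genes, as the values below show. The share of counts in genes shorter than 1 kb (exonic) was 3.74% and 4.35% in those 2 libraries, 2.61% to 3.57% in the other 6 non-stressed libraries, and 1.89% to 2.14% in the 8 chronic-stressed ones. The mitochondrial gene mt-Nd6, which lies on the strand opposite to most mitochondrial protein genes, ran from 1097 to 2334 CPM in non-stressed and from 71.2 to 107 CPM in chronic-stressed libraries. The strand setting of the counting is not given in the sources used here. Both the short-gene share and mt-Nd6 separated the conditions without overlap. Stress and any difference in library making between the conditions thus cannot be told apart here. The part of these features in the results below was tested only as far as the refits given with them go.

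Far more proteasome genes were called lower than higher in chronic-stressed against non-stressed libraries, in both sexes. Of 47 members tested, 16 were lower and 1 was higher in chronic-stressed than in non-stressed males (34% and 2.13%). Of all 17569 genes tested in that comparison, 21.2% were called lower and 18.5% higher. In females, 36 members were lower and 1 was higher (76.6% and 2.13%), beside 27.3% lower and 22.1% higher over all genes tested. A call is a Benjamini-Hochberg adjusted p under 0.05 in edgeR's quasi-likelihood test. The median log2 fold change (chronic-stressed over non-stressed) of the members was -0.32 in males and -0.50 in females, where the median over all tested genes was -0.03 in both. In this bulk tissue, fewer cells of a type and less RNA per cell cannot be told apart.

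All 16 members called lower in males were also called lower in females. Another 20 were called lower in females without passing in males, and 10 passed in neither sex. The PA200 gene Psme4 was the member called higher, and it was so in both. The 4 chronic-stressed and the 4 non-stressed values did not overlap, with the stressed ones lower, for 33 members in males, against 24.6% of all tested genes, and for 28 in females, against 21.6%. They did not overlap with the stressed values higher for 2 members in each sex, against 20.4% and 19.5% of all tested genes.

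**Figure D1:**
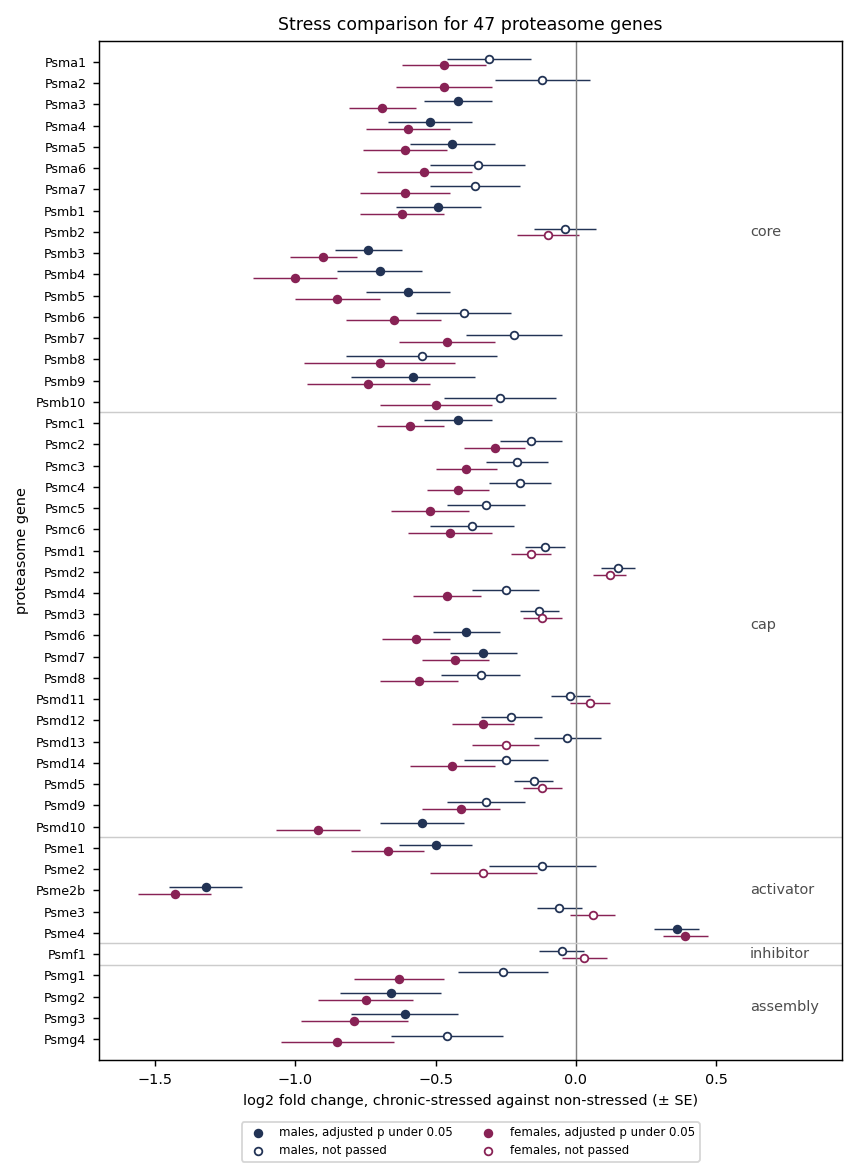
The plot of changes by gene gives the log2 fold change (chronic-stressed against non-stressed, bars are ± SE, n = 4 libraries a group) of the 47 tested proteasome genes in males and females. Filled points passed an adjusted p under 0.05. Most points lie left of 0, while Psme4 lies right of it in both sexes.

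The female count rested in large part on non-stressed female libraries 1 and 4. Summed over all 49 members, proteasome genes took 4368 and 5324 CPM in those libraries and 3532 and 3310 CPM in libraries 2 and 3 of the same group. Non-stressed males lay between 3524 and 3816 CPM, chronic-stressed males between 2959 and 3072 CPM and chronic-stressed females between 3046 and 3129 CPM. Every non-stressed library was thus above every chronic-stressed one in the summed level. Without female libraries 1 and 4, the lower calls became 33 in males, where 26% of all tested genes were then called lower, and 11 in females, where 16% were, and the median log2 fold change became -0.29 in males and -0.13 in females. Leaving out library 4 alone gave 31 lower calls in males and 26 in females, beside 26.1% and 22.9% of all tested genes. With only the 2 compared groups in each fit, 31 members were called lower in males and 24 in females. The shares of all tested genes were then 24.2% and 20.9%, and the members' medians -0.29 and -0.50. The larger female count was thus not kept in those fits.

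No member passed in the interaction of sex and stress, so the larger female count is not shown to be a sex difference in the stress effect. The call rate of that interaction over all genes was 0%, with 374 genes and 0 members at an unadjusted p under 0.05, and DESeq2 also called 0 genes. The lowest unadjusted p among members was 0.0885, for Psmd10. Between females and males, 0 of 47 members passed in either condition by edgeR or by DESeq2, where 0.0455% of all genes passed without stress and 0.0398% under chronic stress by edgeR. Before adjustment, 4 of 47 members had p under 0.05 without stress and 0 under chronic stress, beside 1199 and 146 of all 17569 genes. Those 4 were Psmd10, Psmg1, Psmd13 and Psmg4, with higher means in females. The members' median log2 difference, females over males without stress, was 0.21, and it was -0.12 without female libraries 1 and 4.

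**Figure D2:**
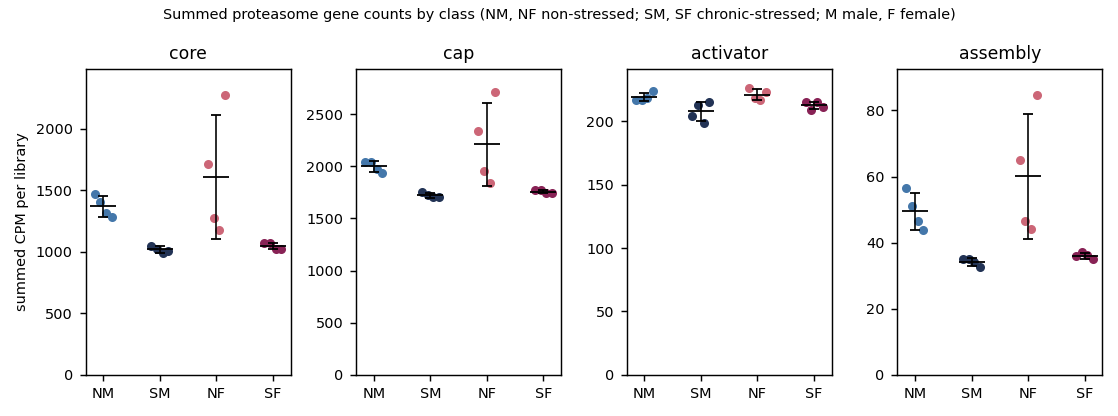
The plot of class sums gives the summed CPM of core, cap, activator and assembly genes in each library (points), with the mean and SD of the 4 libraries of each group. Core sums were 1172 to 2276 CPM in non-stressed and 990 to 1071 CPM in chronic-stressed libraries, and non-stressed females spread most.

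Of the 17 core genes tested, 8 were called lower in males and 16 in females (47.1% and 94.1%), with median log2 fold changes of -0.42 and -0.61. Beside them, 21.2% and 27.3% of all tested genes were called lower. All 7 tested alpha genes were called lower in females and 3 in males (Psma3, Psma4 and Psma5), with medians of -0.60 in females and -0.36 in males. Psma3 (chromosome 12, 71021395 to 71043121, plus strand, GRCm39) encodes an alpha subunit whose N-terminus helps close the gate. It measured 63.9, 60, 46.8 and 49.3 CPM in non-stressed and 40, 43.5, 39.9 and 39.9 CPM in chronic-stressed males. Female libraries held 71.4, 52.1, 51.8 and 74.6 CPM without stress and 39.5, 38.4, 39 and 38.1 CPM with it. The groups did not overlap in either sex, and the stressed female libraries lay within a narrow band. The log2 fold change was -0.42 ± 0.12 in males (SE, adjusted p = 0.012) and -0.69 ± 0.12 in females (adjusted p = 2.8e-04). Psma3 shares a stretch of 665 bases at 100% identity with another gene model (Gm13835). It has 3 further near-copies of at least 95% identity, so its count is uncertain to that degree.

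Psma4, another alpha subunit gene, had 99.5, 94.1, 86.6 and 86.4 CPM in non-stressed and 67.3, 67, 60 and 59.6 CPM in chronic-stressed males. Females had 111, 78.5, 76.5 and 144 CPM without stress and 69.3, 68.5, 67.6 and 65.9 CPM with it. The conditions did not overlap, and female library 4 was the highest of all 16. The log2 fold change of Psma4 was -0.52 ± 0.15 in males (adjusted p = 0.0122) and -0.60 ± 0.15 in females (adjusted p = 0.00391). Psma5 gave 63.4, 65.5, 54.7 and 47.6 CPM in non-stressed and 45.6, 41.9, 40.5 and 41.6 CPM in chronic-stressed males. Its female libraries held 71, 53.9, 51.7 and 92.2 CPM without stress and 45.2, 44.9, 44.4 and 42.5 CPM with it. Here too the stressed libraries were the lower ones in both sexes, without overlap. Psma5 had log2 fold changes of -0.44 ± 0.15 in males (adjusted p = 0.0281) and -0.61 ± 0.15 in females (adjusted p = 0.00323). Psma4 has a near-copy of 96.8% identity (Gm6542), and Psma5 has near-copies of 98.6% (Gm8394) and 97.5% (Gm12989). The testis alpha subunit gene Psma8, which takes the place of Psma7 in germ cells, was nearly silent. It had 5, 9, 6 and 8 counts in non-stressed males, 6, 4, 10 and 2 in non-stressed females, 7, 3, 8 and 6 in chronic-stressed males and 5, 3, 8 and 3 in chronic-stressed females, and was not tested.

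Among the beta subunits without a proteolytic site, Psmb1, Psmb3 and Psmb4 were lower in both sexes and Psmb2 passed in neither. Psmb4 (chromosome 3, 94791404 to 94794272, minus strand, GRCm39) measured 162, 166, 153 and 153 CPM in non-stressed males. Chronic-stressed males had 97.3, 94.7, 96.9 and 99.1 CPM. In females the values were 204, 154, 143 and 283 CPM without stress and 100, 103, 97.7 and 94 CPM with it. The stressed libraries of both sexes lay close to 100 CPM and below every non-stressed library. The fall was 1.62-fold in males (log2 fold change -0.70 ± 0.15, adjusted p = 0.00199) and 2-fold in females (log2 fold change -1.0 ± 0.15, adjusted p = 9.4e-05).

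Psmb3 (chromosome 11, 97594225 to 97604326, plus strand, GRCm39) had 86.9, 89.1, 84.6 and 78.8 CPM in non-stressed and 51.8, 51.5, 47.5 and 51.5 CPM in chronic-stressed males. Its female values were 97.7, 81.8, 70.7 and 120 CPM without stress and 49.7, 50.5, 47.6 and 51.7 CPM with it. Again no value of one condition reached the other. Its log2 fold changes were -0.74 ± 0.12 in males (adjusted p = 1.8e-04) and -0.90 ± 0.12 in females (adjusted p = 2.7e-05). Psmb3 has 3 near-copies of 96.3% to 97.1% identity elsewhere in the annotation. Psmb1, whose product completes the same ring, had 144, 131, 129 and 126 CPM in non-stressed and 99.9, 96.8, 87.8 and 90.6 CPM in chronic-stressed males. Females had 157, 120, 106 and 210 CPM without stress and 98.8, 101, 96.1 and 90.8 CPM with it. Every stressed value was below every non-stressed one of its sex. Psmb1 had log2 fold changes of -0.49 ± 0.15 in males (adjusted p = 0.0171) and -0.62 ± 0.15 in females (adjusted p = 0.00318). Psmb2 lies in the same ring, yet its values overlapped in both sexes, at 55.9 to 64.6 against 54.6 to 60.2 CPM in males and 51.3 to 79.2 against 58.7 to 65.5 CPM in females. Its log2 fold changes were -0.04 ± 0.11 in males (adjusted p = 0.8) and -0.10 ± 0.11 in females (adjusted p = 0.475).

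The constitutive catalytic subunits cut after different residues: Psmb5 has chymotrypsin-like, Psmb6 caspase-like and Psmb7 trypsin-like activity. All 3 were called lower in females and Psmb5 alone of them in males. Psmb5 (chromosome 14, 54851576 to 54855479, minus strand, GRCm39) measured 108, 107, 109 and 113 CPM in non-stressed and 73.6, 66.1, 72 and 74.2 CPM in chronic-stressed males. In females it went from 136, 108, 92.5 and 183 CPM to 67.4, 74.7, 71.4 and 75.6 CPM. The conditions were apart in both sexes, and female libraries 1 and 4 were again the highest. Psmb5 fell 1.51-fold in males (log2 fold change -0.60 ± 0.15, adjusted p = 0.00468) and 1.81-fold in females (log2 fold change -0.85 ± 0.15, adjusted p = 2.8e-04). With the length trend over all genes removed, as described below, its male value was -0.19 (adjusted p = 0.229) and did not pass. Psmb6 had 109, 103, 97.2 and 89.2 CPM in non-stressed and 76.2, 72.8, 73.5 and 75.6 CPM in chronic-stressed males. In females it had 132, 94.7, 82.2 and 177 CPM without stress and 75.7, 80.3, 76.8 and 77.7 CPM with it. Stressed values were lower without overlap in both sexes, by 82.2 against 80.3 CPM at the closest in females. Psmb6 had log2 fold changes of -0.40 ± 0.17 in males (adjusted p = 0.0637) and -0.65 ± 0.17 in females (adjusted p = 0.00444). Psmb7 had 120, 109, 107 and 102 CPM in non-stressed and 95.4, 93.8, 91.9 and 92.2 CPM in chronic-stressed males. Female libraries gave 148, 94, 96 and 193 CPM without stress and 103, 97.7, 94.7 and 92.1 CPM with it. The female ranges overlapped, since libraries 2 and 3 without stress lay among the stressed ones. The log2 fold changes of Psmb7 were -0.22 ± 0.17 in males (adjusted p = 0.311) and -0.46 ± 0.17 in females (adjusted p = 0.0307). Without female libraries 1 and 4, the female value of Psmb7 was 0.05 and no longer passed. Psmb5 has a near-copy of 98.9% identity (Gm3375).

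Transcription of proteasome genes is known to be raised by the factor Nrf1 (gene Nfe2l1) when proteasome capacity is short, through antioxidant response elements in their promoters. Promoters from RefSeq (GRCm38.p6, 250 bases before to 50 after the start) were matched for 41 of the 49 members. The relaxed element TGANNNNGC, searched on both strands, was in 23 of 41 (56.1%, exact 95% interval 39.7% to 71.5%) and in 45% of 27025 genes with a promoter. CCAAT, also searched on both strands, was in 34.1% of members (20.1% to 50.6%) and in 41.1% of all genes. Neither interval leaves out the share over all genes. The promoters of Psmb4, Psmb3 and Psmb5, the 3 core genes with the lowest log2 fold changes in both sexes, and of 2 activator genes described below, Psme2b, the lowest of all members, and Psme4, called higher, are shown 5′ to 3′ on the gene's strand. Capitals mark matches to TGANNNNGC on either strand and to CCAAT.

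Psmb4, chr3:94886909-94887208, minus strand: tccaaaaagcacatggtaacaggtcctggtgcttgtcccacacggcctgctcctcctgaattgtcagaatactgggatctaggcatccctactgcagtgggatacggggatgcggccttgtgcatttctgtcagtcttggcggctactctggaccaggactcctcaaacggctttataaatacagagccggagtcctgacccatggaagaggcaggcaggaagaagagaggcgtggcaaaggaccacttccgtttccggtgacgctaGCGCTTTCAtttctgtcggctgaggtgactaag

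Psmb3, chr11:97703184-97703483, plus strand: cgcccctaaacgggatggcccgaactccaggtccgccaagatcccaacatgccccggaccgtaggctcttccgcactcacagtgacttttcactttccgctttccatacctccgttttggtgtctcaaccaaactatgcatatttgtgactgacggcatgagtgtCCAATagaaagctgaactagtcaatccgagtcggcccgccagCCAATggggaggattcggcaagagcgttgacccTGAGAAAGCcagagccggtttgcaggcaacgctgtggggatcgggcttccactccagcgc

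Psmb5, chr14:54617946-54618245, minus strand: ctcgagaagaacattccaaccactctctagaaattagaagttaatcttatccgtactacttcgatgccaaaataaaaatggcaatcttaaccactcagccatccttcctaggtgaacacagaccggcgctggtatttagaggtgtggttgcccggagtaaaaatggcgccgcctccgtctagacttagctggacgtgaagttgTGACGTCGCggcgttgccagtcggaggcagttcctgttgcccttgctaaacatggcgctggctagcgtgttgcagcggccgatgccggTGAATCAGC

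Psme4, chr11:30771525-30771824, plus strand: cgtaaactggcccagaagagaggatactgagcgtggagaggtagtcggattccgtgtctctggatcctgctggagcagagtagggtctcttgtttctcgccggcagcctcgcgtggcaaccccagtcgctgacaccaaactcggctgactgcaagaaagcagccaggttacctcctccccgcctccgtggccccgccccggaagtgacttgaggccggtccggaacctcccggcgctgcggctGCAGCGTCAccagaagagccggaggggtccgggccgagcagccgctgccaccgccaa

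Psme2b, chr11:48946361-48946660, minus strand: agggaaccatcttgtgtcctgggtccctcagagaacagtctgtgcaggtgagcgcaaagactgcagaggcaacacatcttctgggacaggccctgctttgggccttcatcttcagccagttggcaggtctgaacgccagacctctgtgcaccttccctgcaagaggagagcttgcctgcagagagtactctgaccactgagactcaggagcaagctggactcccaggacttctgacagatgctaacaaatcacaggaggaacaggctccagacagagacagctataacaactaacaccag

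The relaxed element is in the first 4 of these windows, and Psmb3 holds CCAAT at 2 places. The window of Psme2b holds neither.

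The immunoproteasome subunits Psmb8, Psmb9 and Psmb10 replace Psmb5, Psmb6 and Psmb7. On the length-scaled FPKM scale (counts divided by exonic kilobases and the library total in M), Psmb8 averaged 1.05 and Psmb9 0.454 over the 16 libraries, the lowest levels of the 47 tested members, while Psmb10 averaged 13.7 and Psmb5 106, the highest. The summed FPKM of the 3 immunoproteasome genes was 6.75% to 8.39% of that of the 3 constitutive genes in non-stressed and 7.93% to 9.69% in chronic-stressed libraries, so the ranges of this ratio overlapped. Psmb10 made up most of that sum, with a mean of 14 FPKM in non-stressed males beside 1.15 for Psmb8 and 0.52 for Psmb9. All 3 were called lower in females, and Psmb9 alone of them in males. Psmb9 had 2.14, 1.85, 1.95 and 1.69 CPM in non-stressed and 1.07, 1.56, 1.54 and 0.843 CPM in chronic-stressed males. In females it had 2.16, 1.89, 1.89 and 2.82 CPM without stress and 1.21, 1.19, 1.57 and 1.25 CPM with it. All stressed values were lower than the non-stressed ones of their sex. The log2 fold changes of Psmb9 were -0.58 ± 0.22 in males (adjusted p = 0.0463) and -0.74 ± 0.22 in females (adjusted p = 0.00982), at 19 to 51 counts a library. The male call was lost in 11 of the fits that left out 1 of the 16 libraries, with values from -0.72 to -0.43. Psmb8 had 3.8, 4.29, 4.87 and 2.53 CPM in non-stressed and 1.99, 3.12, 3.02 and 2.31 CPM in chronic-stressed males. The female values were 5.07, 3.46, 3.52 and 7.18 CPM without stress and 3.07, 2.61, 4.06 and 2.06 CPM with it. They overlapped in both sexes. Its log2 fold changes were -0.55 ± 0.27 in males (adjusted p = 0.121) and -0.70 ± 0.27 in females (adjusted p = 0.0386). Psmb10 had 21.7, 26.2, 25.1 and 22.4 CPM in non-stressed and 18.9, 20.8, 20.3 and 18.7 CPM in chronic-stressed males. The female values were 30.4, 21.8, 18.6 and 45.7 CPM without stress and 21.7, 21.4, 18.3 and 21.7 CPM with it. Its ranges were apart in males and overlapped in females. The log2 fold change of Psmb10 was -0.27 ± 0.20 in males (adjusted p = 0.304) and -0.50 ± 0.20 in females (adjusted p = 0.0466), and the female value was 0.07 without female libraries 1 and 4. That female call was lost in 14 of the 16 fits without 1 library, with values from -0.62 to -0.17.

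Lymphocyte markers, whose cells express the immunoproteasome strongly, summed to 0.24 to 0.99 CPM over 6 genes in any library, and none was tested. Microglial markers summed to 391 to 531 CPM in non-stressed and 384 to 510 CPM in chronic-stressed libraries, and 5 of 10 were called lower in males and 4 lower with 1 higher in females. For all tested genes these shares were 21.2% lower in males, and 27.3% lower and 22.1% higher in females. The part of the microglial markers in the immunoproteasome values was not tested. The thymus subunit gene Psmb11 had 7, 6, 8 and 5 counts in non-stressed males, 7, 10, 1 and 12 in non-stressed females, 4, 3, 12 and 6 in chronic-stressed males and 2, 5, 4 and 1 in chronic-stressed females, and was not tested.

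**Figure D3:**
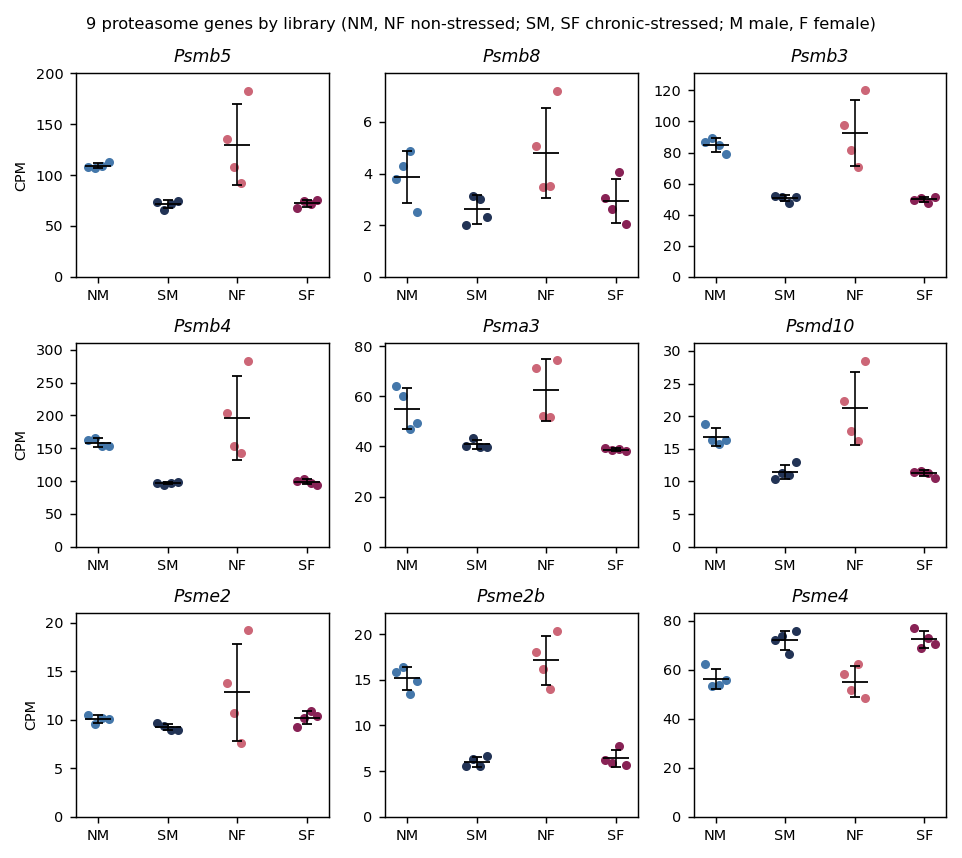
The plots of 9 genes by library give CPM per library (points) with the mean and SD of each group of 4. Psmb5, Psmb3, Psmb4, Psma3, Psmd10 and Psme2b show chronic-stressed libraries below all non-stressed ones of the same sex, Psme4 shows them above, and Psmb8 and Psme2 overlap.

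Of the 20 genes of the regulatory cap, 4 were called lower in males and 14 in females, 0 were called higher, and the median log2 fold changes were -0.24 and -0.42. The male share of 20% was close to the 21.2% of all tested genes. All 6 ATPases of the base (Psmc1 to Psmc6) were called lower in females, and Psmc1 was the 1 called in males. Psmc1 had 161, 169, 166 and 154 CPM in non-stressed and 125, 125, 117 and 115 CPM in chronic-stressed males. Its female libraries held 205, 161, 147 and 239 CPM without stress and 127, 123, 122 and 128 CPM with it. Neither pair of ranges overlapped. Its log2 fold changes were -0.42 ± 0.12 (adjusted p = 0.00819) and -0.59 ± 0.12 (adjusted p = 6.4e-04). Psmc1 has near-copies of 97.1% (Gm9575) and 95.6% (AC110212.1) identity. Psmc5 had 151, 148, 151 and 145 CPM in non-stressed and 118, 122, 115 and 117 CPM in chronic-stressed males. In females it had 185, 146, 131 and 243 CPM without stress and 123, 123, 122 and 127 CPM with it. The conditions were apart in both sexes, most narrowly in females. Its log2 fold changes were -0.32 ± 0.14 in males (adjusted p = 0.0668) and -0.52 ± 0.14 in females (adjusted p = 0.00524). Psmc6 had 117, 101, 84.2 and 86.1 CPM in non-stressed and 81.6, 78.2, 68.4 and 70.2 CPM in chronic-stressed males. Female libraries gave 113, 84.3, 79.8 and 137 CPM without stress and 78.7, 80, 75.6 and 70.6 CPM with it. Stressed values were lower without overlap in males, and the female ranges overlapped. Psmc6 had log2 fold changes of -0.37 ± 0.15 (adjusted p = 0.0536) and -0.45 ± 0.15 (adjusted p = 0.018).

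The base subunits without ATPase activity and the lid gave mixed values. Psmd1 and Psmd2 are the scaffolds that hold ubiquitin receptors and shuttles, and Psmd4 is itself a ubiquitin receptor. Psmd4 had 106, 107, 111 and 111 CPM in non-stressed and 92.3, 90.4, 88.7 and 92.6 CPM in chronic-stressed males. The female values were 135, 108, 95.4 and 161 CPM without stress and 84.7, 92.5, 93.6 and 93.1 CPM with it. The conditions were apart in both sexes. Psmd4 passed in females (log2 fold change -0.46 ± 0.12, adjusted p = 0.00461) but not in males (-0.25 ± 0.12, adjusted p = 0.11). Psmd2 was the 1 cap gene with a positive log2 fold change in both sexes, 0.15 ± 0.06 in males (adjusted p = 0.0503) and 0.12 ± 0.06 in females (adjusted p = 0.0993), and it is named here after its values were seen. Its 181 to 195 CPM in non-stressed males lay below the 206 to 213 CPM of chronic-stressed males, and 174 to 204 CPM below 206 to 211 CPM in females. Psmd2 has a near-copy of 96.4% identity (Gm5422). Of the 8 lid genes, 2 were called lower in males (Psmd6 and Psmd7) and 5 in females, or 25% and 62.5%. The male share was near the 21.2% of all tested genes, and the female share stood beside 27.3%. Psmd6 had 96, 89.6, 82.1 and 81.6 CPM in non-stressed and 68.6, 62.1, 67.9 and 65.1 CPM in chronic-stressed males. Females had 111, 81.8, 78.1 and 125 CPM without stress and 68, 64.6, 69.1 and 66.3 CPM with it. No stressed library reached a non-stressed one. Psmd6 had log2 fold changes of -0.39 ± 0.12 (adjusted p = 0.0184) and -0.57 ± 0.12 (adjusted p = 0.00137). Psmd7 had 126, 118, 107 and 108 CPM in non-stressed and 90.7, 90.4, 92.1 and 89.7 CPM in chronic-stressed males. In females it had 141, 114, 95.2 and 160 CPM without stress and 97.9, 97.3, 92.6 and 91.5 CPM with it. The ranges overlapped in females, where non-stressed library 3 was low. Psmd7 had log2 fold changes of -0.33 ± 0.12 in males (adjusted p = 0.0397) and -0.43 ± 0.12 in females (adjusted p = 0.00745). Psmd8 had 107, 105, 98.1 and 90 CPM in non-stressed and 80.2, 78.2, 76.1 and 79.7 CPM in chronic-stressed males. Its female libraries held 127, 96.5, 84.7 and 158 CPM without stress and 80.1, 80.5, 78.4 and 78.5 CPM with it. The conditions did not overlap. The log2 fold changes of Psmd8 were -0.34 ± 0.14 in males (adjusted p = 0.0661) and -0.56 ± 0.14 in females (adjusted p = 0.00376). Psmd14, the deubiquitinase of the lid, had -0.25 ± 0.15 in males (adjusted p = 0.183) and -0.44 ± 0.15 in females (adjusted p = 0.0201).

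Psmd10, also known as gankyrin, is a chaperone of base assembly that is not part of the finished cap. It had 18.8, 16.4, 15.7 and 16.4 CPM in non-stressed and 10.4, 11.3, 11 and 13 CPM in chronic-stressed males. Females had 22.4, 17.7, 16.2 and 28.5 CPM without stress and 11.5, 11.6, 11.3 and 10.6 CPM with it. The conditions did not overlap. With log2 fold changes of -0.55 ± 0.15 (adjusted p = 0.00724) and -0.92 ± 0.15 (adjusted p = 1.2e-04), it had the most negative value of the cap genes in both sexes. Psmd9, another base chaperone, had 34.8, 35, 33.1 and 27 CPM in non-stressed and 25.5, 24.9, 25.6 and 27 CPM in chronic-stressed males. The female values were 35.4, 30.8, 27.2 and 49.4 CPM without stress and 26.6, 27, 26.7 and 27.7 CPM with it. They overlapped in both sexes. The log2 fold changes of Psmd9 were -0.32 ± 0.14 in males (adjusted p = 0.0823) and -0.41 ± 0.14 in females (adjusted p = 0.0252).

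The chaperones that pair up alpha subunits when the core is built, Psmg1 to Psmg4, were all called lower in females and 2 of them (Psmg2 and Psmg3) in males. The shares of all tested genes called lower were 27.3% in females and 21.2% in males. The summed level of the 4 chaperones was 43.8 to 84.6 CPM in non-stressed and 32.5 to 37.2 CPM in chronic-stressed libraries, without overlap. Psmg2 had 25.1, 22, 21.1 and 18.2 CPM against 13.9, 15.5, 12.6 and 12.5 CPM in males, a log2 fold change of -0.66 ± 0.18 (adjusted p = 0.00733). In females it had 25.9, 18.5, 18.4 and 35.4 CPM against 15.7, 15.8, 13.6 and 13.7 CPM, a log2 fold change of -0.75 ± 0.17 (adjusted p = 0.00239). The conditions were apart in both sexes. Psmg3 had 12, 10.6, 10 and 10.9 CPM in non-stressed and 6.99, 6.55, 7.2 and 7.45 CPM in chronic-stressed males. Female libraries gave 14.1, 8.98, 10 and 20.1 CPM without stress and 7.07, 8.25, 7.69 and 7.78 CPM with it. They did not overlap in either sex. The log2 fold changes of Psmg3 were -0.61 ± 0.19 in males (adjusted p = 0.0183) and -0.79 ± 0.19 in females (adjusted p = 0.0028). Psmg4, the least abundant of the 4 in CPM at 66 to 191 counts a library, had 6.13, 5.34, 5.69 and 5.34 CPM in non-stressed and 4.19, 3.43, 4.86 and 3.64 CPM in chronic-stressed males. Females had 8.62, 5.79, 5.36 and 10.5 CPM without stress and 4.55, 3.41, 4.93 and 3.98 CPM with it. Again they did not overlap. Psmg4 had log2 fold changes of -0.46 ± 0.20 in males (adjusted p = 0.0841) and -0.85 ± 0.20 in females (adjusted p = 0.00268).

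The activators were the class with calls in both directions, 2 lower and 1 higher of 5 in each sex (40% and 20%). Higher calls made up 18.5% and 22.1% of all tested genes in males and females, near that share, and lower calls 21.2% and 27.3%. With the length trend removed, as described below, the higher call of this class was lost. Psme1, the alpha subunit of the 11S activator PA28, and Psme2b, listed beside Psme2 as a further gene of the beta subunit, were called lower in both sexes. Psme4 was called higher, and Psme2 and Psme3, the nuclear PA28 gamma, passed in neither. The summed level of the class was 217 to 226 CPM in non-stressed and 199 to 215 CPM in chronic-stressed libraries. Psme1 had 41.8, 42.7, 40.2 and 39.7 CPM in non-stressed and 30.6, 28.5, 28 and 28.6 CPM in chronic-stressed males. Its female libraries held 45.8, 38.8, 36.3 and 61.1 CPM without stress and 28.1, 28.2, 31.9 and 27 CPM with it. No stressed value reached a non-stressed one of its sex. Psme1 had log2 fold changes of -0.50 ± 0.13 in males (adjusted p = 0.00541) and -0.67 ± 0.13 in females (adjusted p = 5.1e-04).

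Psme2b showed the lowest log2 fold change of all 47 members in both sexes. It lies on chromosome 11 (48836181 to 48837017, minus strand, GRCm39), and its 837 bases of span equal its exonic length, so it is annotated without an intron, while Psme2 lies on chromosome 14 (55824898 to 55828570, minus strand). Their longest open reading frames, both 717 bases in GENCODE M21, differ at 5 bases (99.3% identity). Bases 301 to 420 of both are shown because they hold 2 of those 5 differences, in capitals.

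Psme2: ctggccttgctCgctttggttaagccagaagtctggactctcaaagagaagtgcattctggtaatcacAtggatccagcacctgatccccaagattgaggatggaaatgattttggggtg

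Psme2b: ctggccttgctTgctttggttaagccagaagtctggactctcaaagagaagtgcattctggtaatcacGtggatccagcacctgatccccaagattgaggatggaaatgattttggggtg

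Reads over such stretches can be assigned to one gene only where they span a difference, so how the counting divided them bears on both counts. Psme2b had 15.9, 16.4, 13.5 and 14.9 CPM in non-stressed and 5.59, 6.29, 5.51 and 6.7 CPM in chronic-stressed males. In females it had 18.1, 16.2, 14 and 20.3 CPM without stress and 6.2, 5.91, 7.73 and 5.71 CPM with it. All 8 chronic-stressed libraries lay under the 8 non-stressed ones. The fall was 2.5-fold in males (log2 fold change -1.32 ± 0.13, adjusted p = 1.2e-06) and 2.69-fold in females (log2 fold change -1.43 ± 0.13, adjusted p = 4.5e-07).

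Psme2 itself had 10.5, 9.57, 10.2 and 10.1 CPM in non-stressed and 9.62, 9.31, 8.95 and 8.96 CPM in chronic-stressed males, which overlapped. Its log2 fold changes were -0.12 ± 0.19 in males (adjusted p = 0.643) and -0.33 ± 0.19 in females (adjusted p = 0.162). The FPKM of Psme2b was 223% to 392% of that of Psme2 in non-stressed libraries and 116% to 157% in chronic-stressed ones, without overlap. Whether this ratio reflects the 2 loci or the division of shared reads between them was not tested.

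Psme4 encodes PA200, a large activator of core particles in the nucleus. It lies on chromosome 11 (30721726 to 30830361, plus strand, GRCm39) and has 8382 exonic bases, the longest of the 49 members. Non-stressed males had 62.3, 53.3, 54 and 56 CPM, and chronic-stressed males had 72.3, 73.8, 66.5 and 75.7 CPM. Females had 58.4, 51.6, 62.2 and 48.3 CPM without stress and 77, 69.1, 72.9 and 70.7 CPM with it. The stressed values were all higher in both sexes, and female library 4, the highest in the core genes, was the lowest here. Psme4 rose 1.29-fold in males (log2 fold change 0.36 ± 0.08, adjusted p = 0.00157) and 1.31-fold in females (log2 fold change 0.39 ± 0.08, adjusted p = 7.4e-04). With the length trend removed, as described below, these became 0.05 and 0.06 and did not pass. Psmf1, known as the inhibitor PI31, had 34.7, 36.8, 34.8 and 35.4 CPM in non-stressed and 34.7, 37.3, 30.9 and 33 CPM in chronic-stressed males. Female libraries gave 33, 35.1, 36.1 and 26.9 CPM without stress and 34.6, 33.9, 32.5 and 33.3 CPM with it. They overlapped in both sexes. Psmf1 had log2 fold changes of -0.05 ± 0.08 in males (adjusted p = 0.629) and 0.03 ± 0.08 in females (adjusted p = 0.756).

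The log2 fold change rose with exonic length among proteasome genes and, by rank, among all genes. Over the 47 tested members, the log2 fold change and the log2 of the exonic length had a Pearson r of 0.53 in males and 0.63 in females (Spearman rho 0.46 and 0.53). Over all 17569 tested genes, r was 0.19 and 0.18 and rho was 0.44 and 0.42. These are correlations across genes that share their libraries, given as a description. Of the 15 members under 2 kb, 7 were called lower in males and 13 in females, or 46.7% and 86.7%, beside 34.9% and 42.6% of all tested genes under 2 kb. Their median log2 fold change was -0.42 and -0.63, against -0.38 and -0.46 for all genes of that length. From 2 to 4 kb, 8 and 20 of 22 members were called lower (36.4% and 90.9%), beside 28.7% and 36.9% of all such genes. At 4 kb or more, 1 and 3 of 10 were called lower (10% and 30%), beside 8.38% and 12.2% of all such genes. Their median was -0.12 in both sexes, where all such genes had medians of 0.15 and 0.18.

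**Figure D4:**
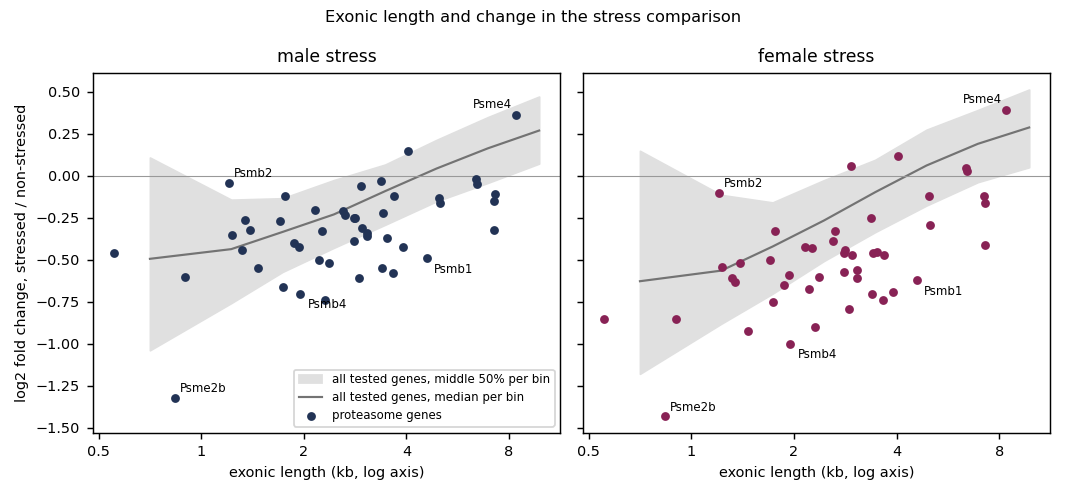
The plot of change against length gives the log2 fold change (chronic-stressed over non-stressed) and the exonic length (kb, log axis) of the 47 tested proteasome genes, with the median and the middle 50% of all tested genes in bins of length. Points rise with length, and more of them lie under the grey line than above it.

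With a smooth length trend over all genes removed from each library, 13 members were called lower and 1 higher in males, with a median log2 fold change of -0.20. In females it was 26 lower and 1 higher, with a median of -0.35. All tested genes then had medians of -0.06 and -0.07, with 20.7% and 26% called lower. Only 7 of the 13 members called lower in males were among the 16 of the uncorrected fit, and 21 of the 26 in females were among the 36. The male calls lost were those of Psma4, Psma5, Psmb5, Psmb9, Psmc1, Psmd6, Psmd7, Psmd10 and Psmg2. The higher call moved from Psme4 to Psmb2, at 0.34 (adjusted p = 0.00506) and 0.32 (adjusted p = 0.00618). Psmf1 became a lower call, at -0.28 and -0.20. Psmb10 and Psmc5 turned from negative to slightly positive values in males (0.05 and 0.03, neither passing). With GC content also removed, 15 were lower in males, 9 of them among the 16, and 24 in females, 20 of them among the 36. The members' medians were then -0.16 and -0.29. Of all genes tested in that fit, 23.2% and 27.9% were called lower, with medians of -0.06 and -0.07.

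**Figure D5:**
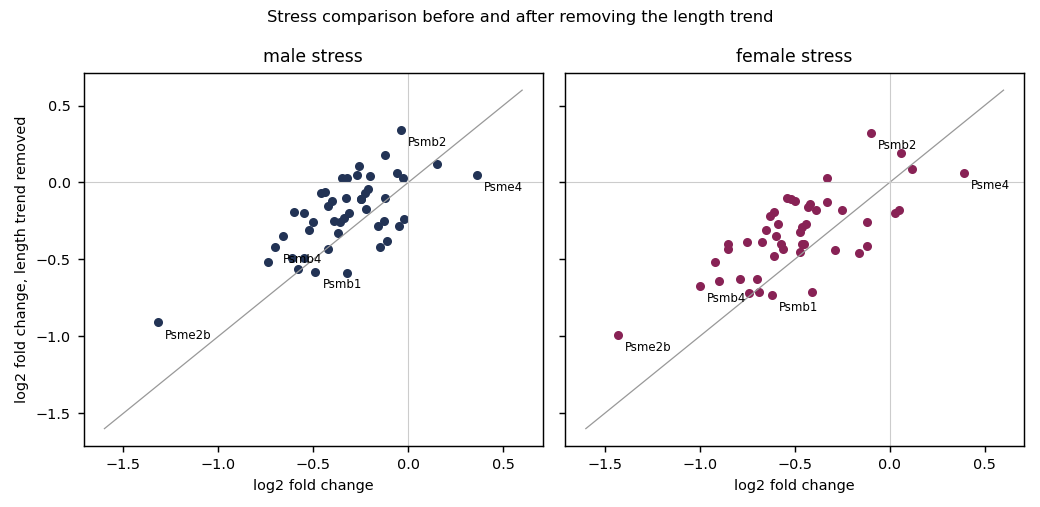
The plot of corrected against uncorrected change sets the log2 fold change of each of the 47 genes with the length trend removed (vertical) against that without correction (horizontal); the line marks equality. Psmb2 rises to 0.34 in males and 0.32 in females, Psme4 drops to 0.05 and 0.06, and Psme2b stays lowest.

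Psma3, Psmb1, Psmb3, Psmb4 and Psme2b were called lower in both sexes in all of the following 7 fits: the main one, the compared groups alone, the length trend removed, the length and GC trend removed, and without female library 1, library 4 or both. These 5 were picked by that rule after their values were seen. Psmb4 ranged from -1.0 to -0.42 across these fits and sexes, Psmb3 from -0.90 to -0.52, Psme2b from -1.43 to -0.91, Psma3 from -0.71 to -0.34 and Psmb1 from -0.77 to -0.19. No member was called higher in all 7. Psma3, Psmb1, Psmb3 and Psmb4 each have an opposite-strand gene within 5 kb, so they could not enter the fit limited to genes without one. The part of such neighbours in their values was not tested.

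Opposite-strand neighbours could add reads where strand is not used in counting. Of the 47 tested members, 35 had an opposite-strand gene within 5 kb, and 66.3% of all tested genes did. Among the 12 without, 3 were called lower in males and 8 in females (25% and 66.7%), beside 18.5% and 25.3% of all tested genes without such a neighbour.

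Most members varied together across libraries. The CPM of the tested members, on a log2 scale, had a Pearson r of 0.69 to 0.99 with the core mean for the core genes over 16 libraries, and the core genes are part of that mean. Psmd2 (r -0.87), Psme4 (-0.81), Psme3 (-0.55), Psmf1 (-0.50) and Psmd11 (-0.48) had negative values, and Psmd3 had 0.26. Outside the family, the genes nearest in pattern among 17522 compared were Glrx5 (r 0.995), Slc25a4 (0.994), Rps4x (0.994), Vti1b (0.993) and Uqcrh (0.993). All points share the library totals and the 2 raised female libraries. By mean FPKM over all libraries, the 4 most abundant members were Psmb5 at 106, Psmc5 at 102, Psmc1 at 77.1 and Psmb4 at 70.5. Psmb4 ranked 4th in non-stressed males and 3rd in non-stressed females, and 7th and 8th in the chronic-stressed males and females. Psmb5 ranked 1st in both non-stressed groups and 2nd, behind Psmc5, in both chronic-stressed groups, where the pair averaged 79.5 and 84.6 FPKM in males and 80.4 and 88.8 FPKM in females.

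Nfe2l1, the gene of Nrf1, was called higher in both sexes, with log2 fold changes of 0.38 ± 0.09 (adjusted p = 0.00249) in males and 0.33 ± 0.09 (adjusted p = 0.00572) in females. Ddi2, the protease that activates Nrf1, was also called higher, at 0.63 ± 0.13 (adjusted p = 0.00134) and 0.53 ± 0.13 (adjusted p = 0.0036). The list of the Nrf1 and Nrf2 pathway does not hold Ddi2, which is counted with the shuttle receptors below. In that list, 3 of 11 tested genes were called higher in each sex (Nfe2l1, Mafg and Txnrd1). The 1 lower call was Mafk in males and Gclm in females. Of all tested genes, 18.5% were called higher and 21.2% lower in males, and 22.1% and 27.3% in females. The medians of the list were 0.02 in males and -0.05 in females. Nfe2l1 has 5441 and Ddi2 has 9553 exonic bases, both in the length range where 31.9% of all genes were called higher in males and 38.2% in females.

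Among genes of subunits, deubiquitinases and other proteins bound to the proteasome, 3 of 6 (50%) were called higher in both sexes (Usp14, Ube3c and Ecpas). The share of all tested genes called higher was 18.5% in males and 22.1% in females. Of the same 6, 1 was called lower in males (Adrm1) and 3 in females (Adrm1, Sem1 and Uchl5). These are 16.7% and 50%, beside 21.2% and 27.3% of all tested genes. Usp14, Ube3c and Ecpas have 8345, 9544 and 11447 exonic bases, in the same length range as Nfe2l1 and Ddi2. Ecpas, which binds and remodels proteasomes, had log2 fold changes of 0.66 ± 0.08 (adjusted p = 1.5e-05) in males and 0.64 ± 0.08 (adjusted p = 2.0e-05) in females. Pomp, the maturation factor of the core, had -0.74 ± 0.16 (adjusted p = 0.00192) and -0.99 ± 0.16 (adjusted p = 1.7e-04). With it, Akirin2 and Txnl1 were called lower and Ipo9 higher in both sexes, 4 of 4 tested genes of assembly and import.

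The shares of all tested genes to read the next counts against are 18.5% higher and 21.2% lower in males and 22.1% and 27.3% in females. Of the ubiquitin-activating enzymes, Uba6 was called higher in males and Uba1 passed in neither sex. Among 6 shuttle receptors, Ddi2 included, 1 was called higher in males, and 2 higher and 2 lower in females. The p97 unfoldase list had 1 higher and 2 lower of 7 in males (14.3% and 28.6%, near those shares), and 1 higher and 4 lower in females.

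The interferon and peptide loading list, which supplies and uses the products of the immunoproteasome, had 1 higher and 3 lower of 12 in males (8.33% and 25%), and 2 higher and 5 lower in females (16.7% and 41.7%). B2m, the light chain of class I molecules, was among the lower ones at -0.69 ± 0.15 (adjusted p = 0.00193) and -0.74 ± 0.15 (adjusted p = 9.4e-04). It has 860 exonic bases, in the range under 2 kb whose share of lower calls over all genes is given above. Of 9 chaperones of unfolded proteins, 1 was called higher and 1 lower in males (11.1% each), and 1 higher and 5 lower in females (11.1% and 55.6%).

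Genes of other large complexes and of deubiquitinases are set beside these counts. The shares over all tested genes were 21.2% lower and 18.5% higher in males, and 27.3% and 22.1% in females. Of 79 cytosolic ribosomal protein genes, 61 were called lower in males and 71 in females, with median log2 fold changes of -0.71 and -0.93. Of 84 nuclear respiratory chain genes, 61 and 74 were called lower, with medians of -0.54 and -0.83. Ubiquitin-specific protease genes had 24 of 46 called higher and 2 lower in each sex, with medians of 0.22 and 0.29. The differences between these lists and the proteasome genes were not tested.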

How the data were processed

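Per the labels' protocols, RNA was extracted with 1-bromo-3-chloropropane and libraries were made from total RNA. Per the submitters' processing notes, the tools were HISAT2 2.0.1 and HTSeq 0.6.1 on build GRCm39; the strand setting and annotation release are not given in the sources used here. The authors deposited gene counts as whole numbers, and the FPKM made from them (recomputed from the counts within 0.005). CPM was computed here over all counts of a library. Totals were 15.2 to 32.5 M (M, 1e+06), and replicate libraries differed by more than counting error, so each was kept.

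A gene entered the tests (17569 of 55359) if 4 or more of the 16 libraries had an FPKM of 0.5 or above. The test was edgeR's quasi-likelihood F-test (edgeR 4.0.16, R 4.3.3) on TMM-scaled counts, with a mean for each of the 4 groups and Benjamini-Hochberg adjustment over all genes tested. Errors of log2 fold changes are SE. Comparisons were stress within each sex, sex within each condition, and their interaction. Members, gene lists, roles and tests were chosen with earlier results of these data known. Values in every library are given for Psmb5 to Psmb10, Psma8 and Psmb11 and, in each role, for up to 3 called members with the largest mean absolute log2 fold change over both stress comparisons, or, where none was called, the member with the smallest p; Psmb2, Psmd2, Psmd14 and Psme2 were added after their values were seen. Alternatives were DESeq2 1.42.0, limma 3.58.1 on log2(FPKM + 0.5) and log2(FPKM + 0.1), other scalings and filters, the compared groups alone, a replicate block, each library left out, thinning, length and GC trends removed, and genes without an opposite-strand gene within 5 kb. GC content (98.8% of tested genes) and near-copies (at least 95% identity over at least 200 bases, 15 of 49 members) came from GENCODE M21 transcripts. Those 15 were Psma3, Psma4, Psma5, Psmb3, Psmb5, Psmb7, Psmb9, Psmc1, Psmd1, Psmd2, Psmd11, Psmd13, Psme2, Psme2b and Psmg3. The matches of Psmb7 (Nek6), Psmb9 (Tap1) and Psmd13 (Sirt3) were with opposite-strand genes that overlap them, not with copies elsewhere. Some genes of the lists are not reported here. Scripts were tested on simulated data. Figures used matplotlib 3.10.9.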

Additional observations from a re-analysis of the deposited data

Results flagged for a closer look

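Over 30 named genes in each of the 4 groups, 120 sets of 4 libraries were examined for a library far from the other 3, and 5 were found. Chance gives about 1 in 20. Psmb9 was highest in chronic-stressed female library 3, at 1.57 CPM beside a median of 1.21 CPM in the other 3. Psmb10 was lowest in the same library, at 18.3 CPM beside 21.7 CPM. Psma3 was highest in chronic-stressed male library 2, at 43.5 CPM beside 39.9 CPM. Psmb3 was lowest in chronic-stressed male library 3, at 47.5 CPM beside 51.5 CPM. Psmd4 was lowest in chronic-stressed female library 1, at 84.7 CPM beside 93.1 CPM.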

How the results depend on the processing

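Counts of members called, 17 in males and 37 in females, were within 1.5 times of those values under DESeq2, limma, other scalings and filters, thinning and both trend corrections, though with length and GC removed the members' medians were -0.16 and -0.29. They became 33 in males and 25 in females with the compared groups alone, and 35 in males and 12 in females without non-stressed female libraries 1 and 4. Among genes free of opposite-strand neighbours within 5 kb, they were 4 and 9 of 12 tested members. With each library left out in turn they ran from 14 to 33 in males, the latter without non-stressed female library 4, and from 27 to 40 in females; sex and interaction counts stayed at 0 throughout. The replicate block gave 17 in males and 35 in females. Libraries with the same number varied together weakly or not at all (24 pairs, r -0.233 to 0.171, 5 of 16 libraries closest to their own number). No pairing by number was found, which does not show that there was none.

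Of 1630 values for named genes under alternatives, 1447 kept direction and side of the threshold, 126 lost the call, 47 gained it and 10 changed sign. With the length trend removed, the log2 fold change of Psmc5 in males was 0.03, of Psmb10 in males 0.05 and of Psmf1 in females -0.20. With length and GC removed these were 0.03, 0.04 and -0.24. Without female libraries 1 and 4, the female values were 0.05 for Psmb7, 0.07 for Psmb10 and -0.06 for Psmf1, and with single libraries left out the female value of Psmf1 ran from -0.04 (without non-stressed female library 4) to 0.12. The stricter element TGACNNNGC in place of TGANNNNGC was in 14.6% of member promoters and in 14% of all. The causes of these changes were not tested, beyond fewer genes or libraries entering a fit. Depth limits Psmb8, Psmb9 and the untested Psma8 and Psmb11.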
